A study of Sorghum bicolor with 12 samples.

Results

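Proline and glycine betaine are small soluble compounds that many plants accumulate under salt. The loci described here are those whose GO annotation in the deposited table names proline biosynthesis, proline catabolism or glycine betaine biosynthesis from choline. Of 34352 loci in the table, 14 carried such a term, and the 10 with the highest mean expression over the 12 libraries were taken. Of these 10 loci, 8 were annotated to proline synthesis, 1 to proline breakdown and 1 to glycine betaine synthesis. The last locus taken, SORBI_3006G041700, had a mean of 1.43 FPKM, and the first one left out, SORBI_3006G065300, had a mean of 0.620 FPKM. The other 3 loci left out had means of 0.0309 to 0.149 FPKM. All 10 loci were above 0 FPKM in each of the 12 libraries, so none was lost to the filter of the tests.

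The study set a sweet sorghum line that tolerates salt, M-81E, beside a line sensitive to it, Roma, to learn how their roots respond to salt. Seedlings at the three-leaf stage were grown without salt (CK) or with salt, and total RNA was taken from the roots. The paper states that salt was raised in steps up to its final concentration. The 24 h of exposure were at that final concentration, so the salt libraries do not show the response to an abrupt dose. Line and treatment gave 4 groups (M-81E-CK and M-81E-salt for the tolerant line, Roma-CK and Roma-salt for the sensitive one), each with 3 libraries, which the paper calls biological replicates. The values are FPKM, the fragments assigned to a locus per length of its transcripts and scaled to all mapped fragments of the library, so that levels of different loci can be compared per length. Each group stands for 1 line, so a difference between groups of unlike line is a difference between these lines and not between tolerant and sensitive sorghum at large. In whole roots, fewer cells of a type and less RNA per cell cannot be told apart.

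Plants make proline mainly from glutamate. The bifunctional enzyme delta-1-pyrroline-5-carboxylate (P5C) synthetase reduces glutamate towards P5C, usually the rate-limiting step, and P5C reductase turns P5C into proline. In mitochondria, proline dehydrogenase oxidises proline back to P5C, and P5C dehydrogenase returns P5C to glutamate. Glycine betaine is made from choline by choline monooxygenase and then betaine aldehyde dehydrogenase.

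Summed FPKM per library ranged from 267572 to 305677. Relative depth, estimated from how finely the lowest values were spaced over 6904 loci that never exceeded 0.3 FPKM, was 0.815 to 1.04 of that of the first M-81E-CK library, and the 3 Roma-CK libraries (0.815 to 0.939) were shallower than the 3 Roma-salt libraries (0.993 to 1.04). Correlations of log2(FPKM + 1) were 0.933 to 0.949 within groups and 0.856 to 0.935 between groups. A list of 65 loci annotated to root growth and root hairs summed to 960 to 1485 FPKM, with 36 to 43 loci at 1 FPKM or more, whereas 34 loci annotated to photosystems and light harvesting summed to at most 38.5 FPKM in any library, with 3 to 6 loci at 1 FPKM or more. Root markers were thus present. The 17 light harvesting loci among them summed to 19.4 to 25.5 FPKM in Roma-CK and 10.4 to 13.3 FPKM in Roma-salt, and in M-81E the treatments overlapped.

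By the mean over all 12 libraries, proline dehydrogenase and the P5C synthetases ranked highest of the 10 loci. The proline dehydrogenase locus SORBI_3001G304700 averaged 81.5 FPKM over the 12 libraries. It was followed by the P5C synthetase loci SORBI_3009G160100 (25.0 FPKM) and SORBI_3003G356000 (11.7 FPKM). The P5C reductase locus, which the assembly joined from SORBI_3003G424300, SORBI_3003G424400 and SORBI_3003G424500, averaged 8.71 FPKM, and its FPKM cannot be divided between these genes. The only betaine locus, SORBI_3010G248200 joined with SORBI_3010G248301, is annotated as choline monooxygenase. It averaged 3.65 FPKM, which likewise cannot be divided between its genes. This order did not hold in each line. In M-81E-CK, the 3 values of SORBI_3003G356000 (3.36 to 5.35 FPKM) were all below those of the P5C reductase locus (9.87 to 11.3 FPKM) and overlapped those of the choline monooxygenase locus (3.72 to 4.96 FPKM). In M-81E-salt its mean of 5.72 FPKM was also below that of P5C reductase (7.33 FPKM) and of choline monooxygenase (7.67 FPKM), with overlapping values. In Roma-salt it stood at 22.9 to 33.0 FPKM, above both.

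**Figure D1:**
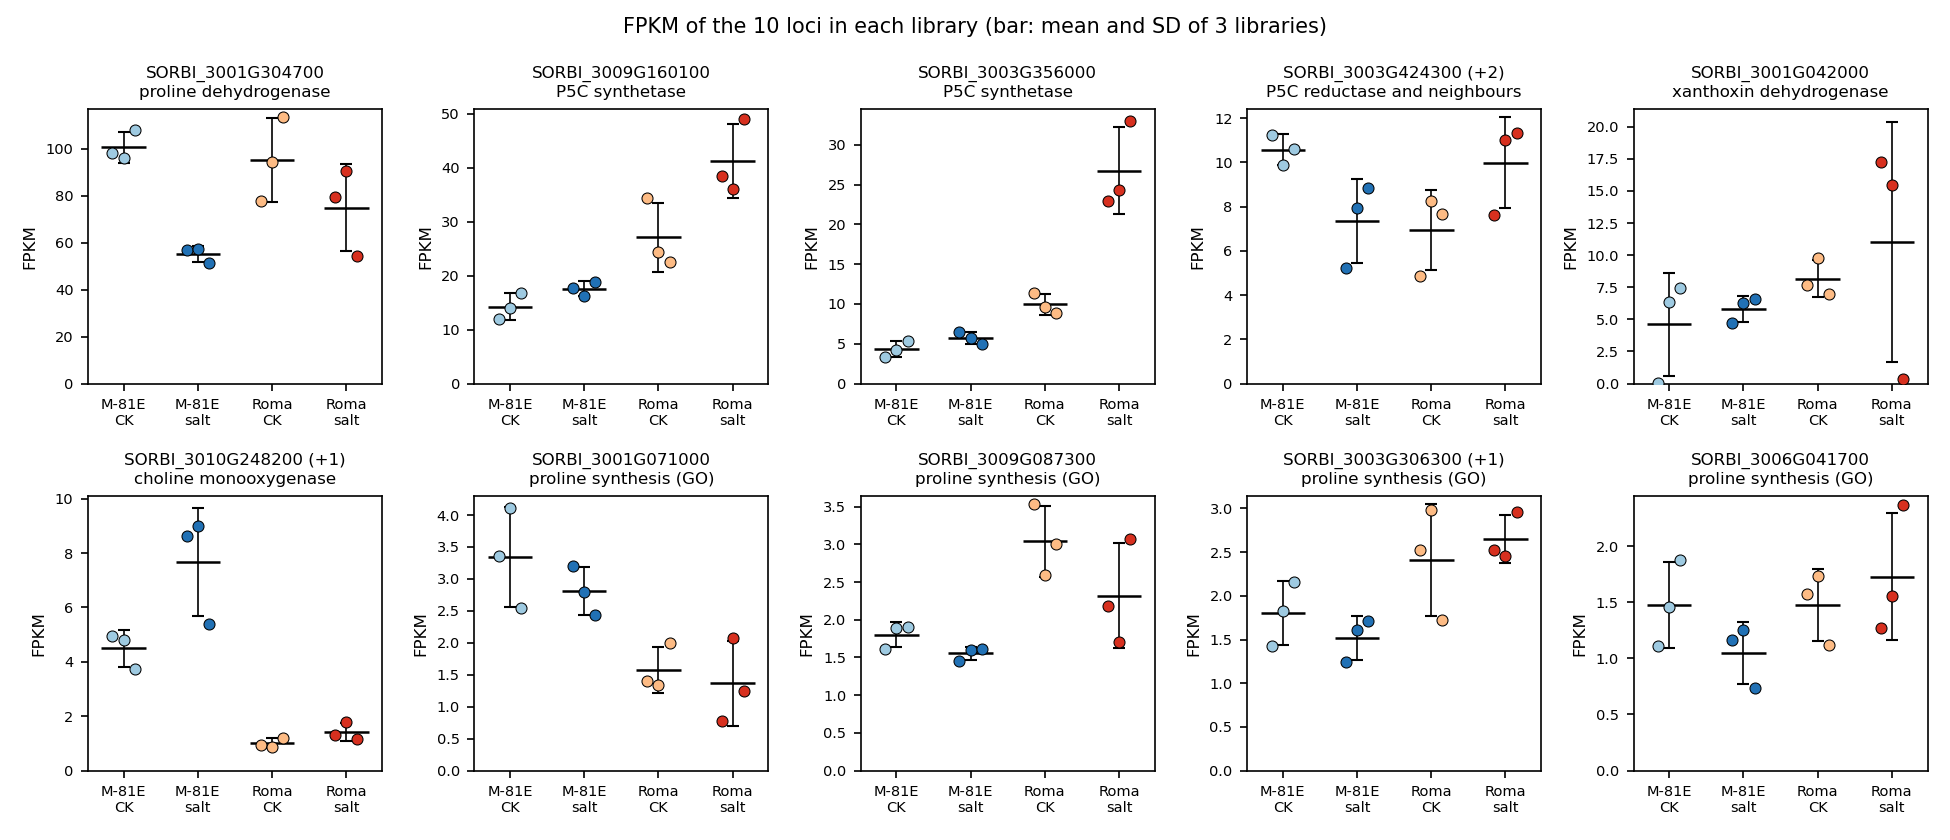
FPKM (y axis, linear, from 0, with its own scale in each panel) of the 10 loci in each of the 12 libraries, by line and treatment (x axis). Points are libraries, and the bars give the mean and SD of 3 libraries. Proline dehydrogenase stood at 51.5 to 57.5 FPKM in M-81E-salt against 95.9 to 108.2 FPKM in M-81E-CK, and SORBI_3003G356000 stood at 22.9 to 33.0 FPKM in Roma-salt against 8.82 to 11.4 FPKM in Roma-CK.

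The first comparison asked how each line responded to salt. Log2(FPKM + 1) was compared with limma, a linear model with variances moderated across loci, and p-values were adjusted by the Benjamini-Hochberg method over all loci tested. A locus was said to rise or fall where its adjusted p was under 0.05. A locus was called a DEG, by the thresholds of the study's methods, where its unadjusted p was under 0.05 and its mean FPKM differed by at least 1 on the log2 scale. In M-81E, 1 of the 10 loci fell and 0 rose, against 0.494% and 0.332% of the 32212 loci tested (0.826% in either direction). None of the 10 was a DEG, against 6.57% of loci tested. At an unadjusted limma p under 0.05, 3 of the 10 loci passed, against 15.3% of loci tested. In Roma, 1 of the 10 loci rose and 0 fell, against 1.04% and 0.784% of 32264 loci tested (1.82% in either direction), and 1 was a DEG, against 9.6%. At an unadjusted limma p under 0.05, 2 of the 10 passed, against 17.9%. The libraries of CK and salt did not overlap at 4 of the 10 loci in M-81E, against 22.1% of loci tested, and at 2 of the 10 in Roma, against 24.6%. The median limma log2 fold change of the 10 loci was -0.14 in M-81E and 0.12 in Roma, beside medians over all loci of 0.01 and 0.00.

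The locus that fell in M-81E was proline dehydrogenase, SORBI_3001G304700, the only one of the 10 annotated to proline breakdown. Its FPKM was 98.0, 95.9 and 108.2 in M-81E-CK and 56.8, 57.5 and 51.5 in M-81E-salt. Every salt library was below every CK library. The mean went from 100.7 ± 6.56 to 55.2 ± 3.29 FPKM (SD, n = 3), to 54.9% of the CK level, and the limma log2 fold change was -0.85 (SE 0.10, Benjamini-Hochberg adjusted p = 0.0353). In Roma, the same locus had 77.8, 94.4 and 113.7 FPKM in CK and 79.5, 90.5 and 54.3 FPKM in salt. These groups overlapped, and the log2 fold change of -0.36 (SE 0.24) did not pass (limma, adjusted p = 0.506). Without the last Roma-salt library, which had 54.3 FPKM, it was -0.15. The spread in Roma-CK and Roma-salt (SD 18.0 and 18.6 FPKM) was wider than in either M-81E group. The difference between the lines in this response was 0.49 on the log2 scale (95% interval -0.11 to 1.10, limma, adjusted p = 0.438), so a difference was not shown. The M-81E call was lost when any 1 of the 6 libraries was left out, with adjusted limma p of 0.0649 to 0.117 and log2 fold changes of -0.89 to -0.80.

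P5C synthetase catalyses the first committed step of proline synthesis, and both loci that the KEGG annotation gives to this enzyme were among the 10. SORBI_3003G356000 was the locus that rose in Roma. Its FPKM was 11.4, 9.59 and 8.82 in Roma-CK and 22.9, 24.3 and 33.0 in Roma-salt. The lowest salt library was above the highest CK library. The mean went from 9.94 ± 1.33 to 26.7 ± 5.44 FPKM (SD, n = 3), which was 2.69-fold, and the limma log2 fold change was 1.33 (SE 0.17, adjusted p = 0.0340). It was also the only DEG among the 10 loci in a salt response. Leaving out any 1 of the 6 Roma libraries lost this call, with adjusted limma p of 0.0530 to 0.108, while the log2 fold change stayed at 1.18 to 1.43. Beside it, the light harvesting loci and the relative depth of the libraries also separated Roma-CK from Roma-salt, and their part in the result was not tested.

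In M-81E, SORBI_3003G356000 had 3.36, 4.18 and 5.35 FPKM in CK and 6.48, 5.72 and 4.97 FPKM in salt. The groups overlapped in 1 library each, and the log2 fold change of 0.36 (95% interval -0.07 to 0.78) did not pass (limma, adjusted p = 0.397). The test of the difference between the 2 lines gave 0.98 (SE 0.25, 95% interval 0.42 to 1.54) with an unadjusted p that passed 0.05 and a Benjamini-Hochberg adjusted limma p of 0.0934 over 34352 loci. A larger response in Roma was therefore not established by the adjusted test. Over the 10 loci, 0 passed this interaction test, against 1.81% of loci tested, and 2 had an unadjusted limma p under 0.05, against 15.1% of loci tested.

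The second P5C synthetase locus, SORBI_3009G160100, was the more abundant of the pair in every library. In M-81E its FPKM was 11.9, 14.0 and 16.8 in CK and 17.7, 16.2 and 18.9 in salt, and these groups overlapped. In Roma it had 34.3, 24.5 and 22.5 FPKM in CK and 38.5, 36.1 and 49.0 FPKM in salt, without overlap. The log2 fold changes were 0.30 (SE 0.14, limma, adjusted p = 0.388) in M-81E and 0.60 (SE 0.20, limma, adjusted p = 0.203) in Roma, and neither passed. How the authors' counting shared reads between the similar sequences of these loci is not given in the sources used here.

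**Figure D2:**
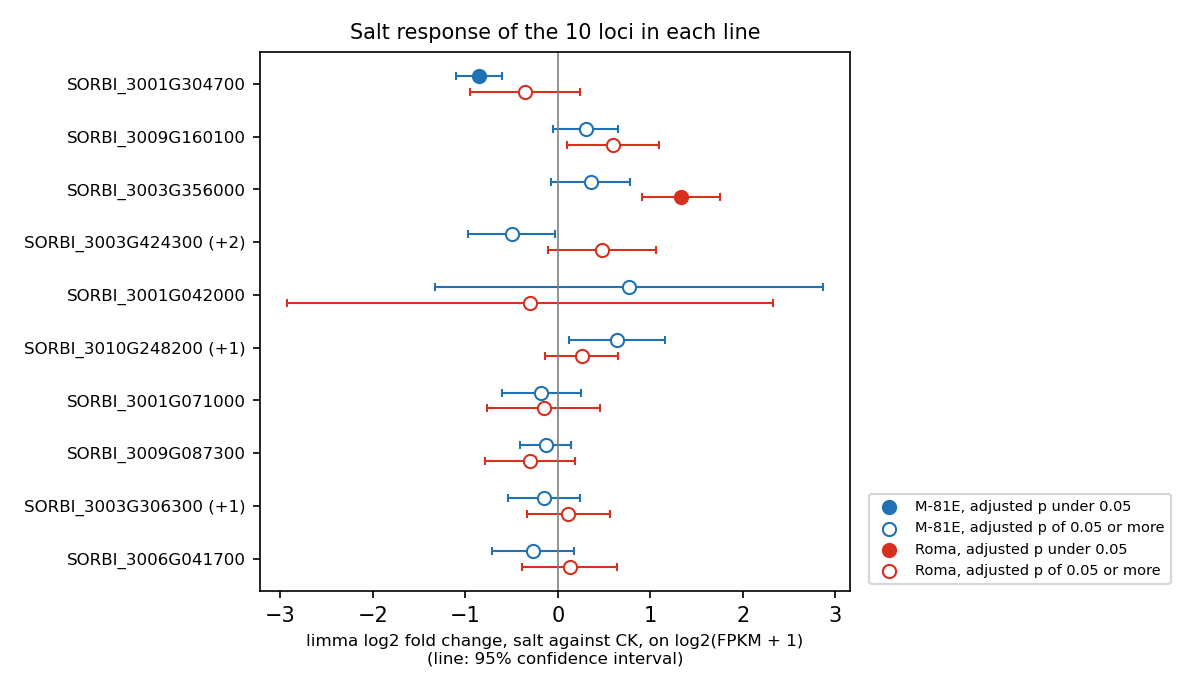
Salt response of the 10 loci (y axis) as the limma log2 fold change of salt against CK on log2(FPKM + 1) (x axis), M-81E in blue and Roma in red, with 95% confidence intervals as lines. Filled points have an adjusted p under 0.05, which holds for proline dehydrogenase in M-81E (-0.85) and SORBI_3003G356000 in Roma (1.33).

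Levels of members set against each other within a library do not depend on how the library was scaled. These ratios were chosen after the values had been seen, and with 3 libraries against 3 an exact permutation test cannot give a p under 0.1. The share of SORBI_3003G356000 in the summed FPKM of both P5C synthetase loci was 24.9, 28.2 and 28.2% in Roma-CK and 37.3, 40.3 and 40.2% in Roma-salt. The Roma groups were separate, with means of 27.1 and 39.3% (two-sided exact permutation p = 0.1). In M-81E the share was 22.0, 23.0 and 24.1% in CK and 26.8, 26.1 and 20.8% in salt, with overlap (exact permutation p = 0.5).

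The summed FPKM of the P5C synthetase loci divided by that of proline dehydrogenase sets the first step of synthesis against the first step of breakdown. This ratio was 0.156, 0.189 and 0.205 in M-81E-CK and 0.425, 0.382 and 0.464 in M-81E-salt. It was 0.588, 0.361 and 0.275 in Roma-CK and 0.772, 0.668 and 1.51 in Roma-salt. Salt libraries were above CK libraries in both lines, with means of 0.183 ± 0.0254 and 0.424 ± 0.0407 in M-81E and 0.408 ± 0.162 and 0.983 ± 0.459 in Roma (SD, n = 3, exact permutation p = 0.1 in each line). The highest value, 1.51, came from the Roma-salt library that had the lowest proline dehydrogenase and the highest P5C synthetase values of that group. Without that library the mean salt minus CK difference in Roma went from 0.575 to 0.312. In M-81E the sum of the P5C synthetases overlapped between treatments (15.2 to 22.2 FPKM in CK and 22.0 to 24.2 in salt), whereas in Roma it did not (31.3 to 45.8 and 60.4 to 82.0 FPKM). Proline dehydrogenase was also divided by P5C dehydrogenase, a locus outside the 10. The mean of that ratio was 9.73 in CK and 4.09 in salt in M-81E, and 6.26 and 2.38 in Roma. Treatments did not overlap in either line (exact permutation p = 0.1 in each).

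**Figure D3:**
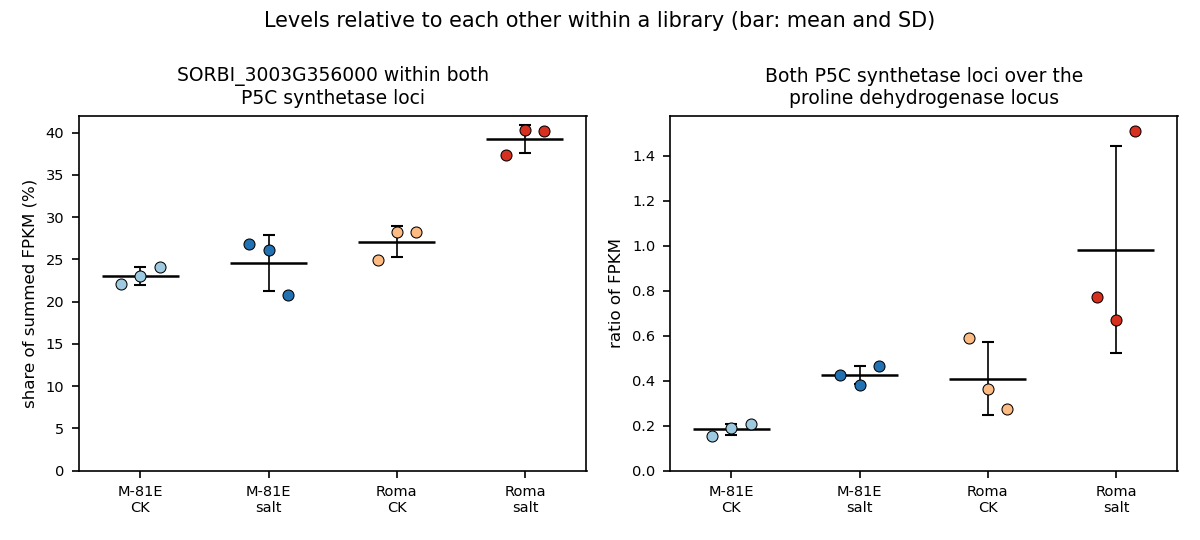
Left, the share (%) of SORBI_3003G356000 in the summed FPKM of both P5C synthetase loci; right, the ratio of that sum to the FPKM of proline dehydrogenase, by line and treatment (x axis). Points are libraries, and bars give the mean and SD of 3 libraries; the share stood at 37.3 to 40.3% in Roma-salt and at 20.8 to 28.2% in the other groups.

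P5C reductase, the last enzyme of proline synthesis, is held by the joined locus of SORBI_3003G424300, SORBI_3003G424400 and SORBI_3003G424500. KEGG gives this locus a second code, K08332, besides that of P5C reductase. Values named P5C reductase here are those of the whole locus and may not come from that enzyme's gene alone. The FPKM of the joined locus was 11.3, 9.87 and 10.6 in M-81E-CK and 5.21, 7.92 and 8.87 in M-81E-salt. In Roma it was 4.89, 8.26 and 7.68 in CK and 7.62, 11.0 and 11.3 in salt. The M-81E groups did not overlap, with salt lower, and the Roma groups overlapped. The log2 fold changes of -0.50 (SE 0.19, limma, adjusted p = 0.301) in M-81E and 0.48 (SE 0.23, limma, adjusted p = 0.362) in Roma had opposite signs and did not pass. Their difference was 0.98 (95% interval 0.27 to 1.69, limma, adjusted p = 0.172), which was the second of the 2 loci with an unadjusted interaction p under 0.05. The other P5C reductase locus by KEGG annotation, SORBI_3007G143600, was among those left out and did not exceed 0.174 FPKM in any library.

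Choline monooxygenase, the first enzyme from choline to glycine betaine, was the only betaine locus, SORBI_3010G248200 joined with SORBI_3010G248301. In M-81E its FPKM was 4.96, 4.80 and 3.72 in CK and 8.63, 8.99 and 5.40 in salt. The Roma values were 0.953, 0.871 and 1.21 FPKM in CK and 1.29, 1.79 and 1.16 FPKM in salt. Salt libraries were above CK libraries in M-81E and overlapped them in Roma. The mean was 1.71 times the CK level in M-81E, with a log2 fold change of 0.64 (SE 0.21), but the adjusted limma p was 0.242. In Roma the mean was 1.40 times the CK level, with a log2 fold change of 0.26 (SE 0.16, limma, adjusted p = 0.474). The difference between the lines was -0.38 (95% interval -0.97 to 0.21, limma, adjusted p = 0.568). The pseudocount understates the change more at the lower Roma level. Without it, the log2 ratios of the means were 0.77 in M-81E and 0.48 in Roma.

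Among the 5 remaining loci, annotated to proline synthesis by GO alone, no salt response passed in either line. For SORBI_3001G042000 the KEGG annotation names xanthoxin dehydrogenase, an enzyme of abscisic acid synthesis, and not an enzyme of proline. Its FPKM was 0.00845, 6.38 and 7.45 in M-81E-CK and 4.69, 6.26 and 6.56 in M-81E-salt. In Roma it was 7.70, 9.76 and 6.99 in CK and 17.3, 15.5 and 0.319 in salt. In 2 libraries, the first of M-81E-CK and the last of Roma-salt, the locus was thus far under the other libraries of the same group. A library at under 0.1 of the others was likewise found at 3.44 to 3.93% of loci with at least 1 FPKM in 2 libraries of a group, and the cause was not tested. The directions rested on these libraries. The log2 fold change of 0.77 in M-81E became -0.22 without the first, and that of -0.30 in Roma became 0.94 without the last (limma, adjusted p = 0.645 and 0.103).

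The other 4 loci were low. SORBI_3001G071000, to which KEGG gives an acylglycerol lipase code, had 2.54 to 4.11 FPKM in M-81E-CK, 2.43 to 3.19 in M-81E-salt, 1.34 to 1.99 in Roma-CK and 0.772 to 2.08 in Roma-salt. SORBI_3009G087300, with a GO term for glutamate-5-semialdehyde dehydrogenase, the activity of the second domain of P5C synthetase, had 1.62 to 1.91, 1.45 to 1.61, 2.59 to 3.53 and 1.70 to 3.07 FPKM in the same order. SORBI_3003G306300 joined with SORBI_3003G306200, which carries a GO term for glutamate 5-kinase, the activity of the first domain, had 1.42 to 2.16, 1.24 to 1.71, 1.72 to 2.99 and 2.46 to 2.96 FPKM. For SORBI_3006G041700, given a momilactone-A synthase code by KEGG, the ranges were 1.11 to 1.87, 0.733 to 1.26, 1.12 to 1.74 and 1.27 to 2.36 FPKM. Of these 4, only SORBI_3009G087300 in M-81E had treatments that did not overlap, with salt the lower (limma, adjusted p = 0.629). The gap was very narrow, from 1.61466 FPKM in the highest salt library to 1.61524 FPKM in the lowest CK library.

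The second comparison asked how the lines differed under the same treatment. More of the 10 loci passed here than for salt, as did more of all loci. In CK, 3 of the 10 loci were higher and 2 lower in Roma than in M-81E, against 18.5% and 8.84% of the 32931 loci tested (27.3% in either direction). In salt, 3 were higher and 1 lower, against 21.2% and 9.15% of 33237 loci (30.4%). There were 3 DEGs in CK and 4 in salt, against 26% and 26.9%, and the lines did not overlap at 6 and 7 of the 10 loci, against 45.6% and 46.2%. Each of these counts was above the share of all loci by fewer than 3 loci of the 10. Of all loci called, 67.6% in CK and 69.9% in salt were higher in Roma, but after libraries were rescaled to a common median these shares were 41% and 45.7%. That rescaling moved the median log2 difference of all loci in CK from 0.11 to -0.01. The root marker list also differed, at 960 to 1083 FPKM in M-81E libraries and 1277 to 1485 FPKM in Roma libraries, and its part in these differences was not tested.

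The choline monooxygenase locus, joined from SORBI_3010G248200 and SORBI_3010G248301, was lower in Roma. Which of these genes carried the difference cannot be told. In CK the Roma mean of 1.01 ± 0.178 FPKM was 22.5% of the M-81E mean of 4.49 ± 0.671 FPKM (SD, n = 3), with a log2 difference of -1.45 (SE 0.14, limma, adjusted p = 0.00206). In salt, 1.41 ± 0.337 FPKM in Roma was 18.4% of 7.67 ± 1.97 FPKM in M-81E (log2 difference -1.83, SE 0.21, limma, adjusted p = 0.00297). The highest Roma library, 1.79 FPKM, was below the lowest M-81E library, 3.72 FPKM. Rescaling gave -1.75 and -2.12, and leaving out any 1 library kept the adjusted limma p at 0.0149 or lower. Ballgown's linear model, whose library covariate followed the lines, gave -1.20 in CK and 1.62 in salt, neither of which passed.

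Both P5C synthetase loci were higher in Roma. SORBI_3003G356000 in CK was 2.31-fold higher (log2 difference 1.06, SE 0.17, limma, adjusted p = 0.0100), and in salt 4.67-fold higher (2.03, SE 0.17, limma, adjusted p = 0.00104). SORBI_3009G160100 was 1.90-fold higher in CK (0.87, SE 0.20, limma, adjusted p = 0.0281) and 2.34-fold higher in salt (1.17, SE 0.14, limma, adjusted p = 0.00303). No M-81E library of either locus reached the lowest Roma library of the same treatment. Rescaling lowered the CK differences to 0.66 and 0.44, and that of SORBI_3009G160100 then did not pass (limma, adjusted p = 0.101). Ballgown's model turned that CK difference to -0.11. That locus also lost its CK call without the first or second M-81E-CK library or the second Roma-CK library (limma, adjusted p = 0.0876, 0.0855 and 0.0613). The salt and line comparisons share libraries, so that these differences and the Roma salt response are not separate pieces of evidence.

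Proline dehydrogenase, in contrast, overlapped between the lines in both treatments. The log2 difference was -0.09 in CK (SE 0.16, limma, adjusted p = 0.694) and 0.40 in salt (SE 0.20, limma, adjusted p = 0.201). The salt value rested on 1 library: without the last Roma-salt library it was 0.61 and passed (limma, adjusted p = 0.0228). Rescaling took it to 0.0064. P5C reductase was 6.94 ± 1.80 FPKM in Roma-CK and 10.6 ± 0.699 FPKM in M-81E-CK (SD, n = 3), and the lines did not overlap in CK, but the log2 difference of -0.57 did not pass (limma, adjusted p = 0.0801). Rescaling took it to -0.98 (limma, adjusted p = 0.0305). In salt the lines overlapped, with a log2 difference of 0.41 (limma, adjusted p = 0.250).

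Of the low loci, SORBI_3001G071000 was lower in Roma in CK (log2 difference -0.74, SE 0.19, limma, adjusted p = 0.0360), and SORBI_3009G087300 was higher (0.52, SE 0.13, limma, adjusted p = 0.0370). In salt, the joined SORBI_3003G306300 and SORBI_3003G306200 locus was higher in Roma (0.54, SE 0.13, limma, adjusted p = 0.0292). These calls rested on few libraries. Without 1 library, the adjusted limma p of SORBI_3001G071000 reached 0.108 (4 of 6 left-out libraries lost it), that of SORBI_3009G087300 reached 0.116 (5 of 6) and that of the joined locus reached 0.0791 (5 of 6). Rescaling ended the last 2 calls, with log2 differences of 0.20 and 0.27.

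Enzymes that stand next to the 10 loci in the pathway were taken from other GO terms. Terms for P5C synthetase, P5C reductase, proline dehydrogenase, P5C dehydrogenase, choline monooxygenase and betaine aldehyde dehydrogenase activity added 2 loci, and neither passed for salt. Terms for proline or betaine transport and for choline supply added 0 loci. SORBI_3009G212600, P5C dehydrogenase, which carries proline breakdown on from P5C to glutamate, had 20.1, 15.8 and 12.7 FPKM in Roma-CK and 29.9, 29.0 and 40.2 FPKM in Roma-salt. The salt libraries were above the CK libraries, 2.04-fold in the mean, which made it a DEG, while the log2 fold change of 0.99 (SE 0.21) had an adjusted limma p of 0.0833. In M-81E it had 9.55, 10.1 and 11.5 FPKM in CK and 16.8, 14.1 and 10.7 FPKM in salt, with overlap (log2 fold change 0.37, limma, adjusted p = 0.386).

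Supply of glutamate and ornithine was covered by 27 loci annotated to ornithine, arginine or glutamate metabolism. In M-81E, 0 of 27 passed the adjusted limma p, against 0.826% of all loci, and 4 had an unadjusted p under 0.05, against 15.3%. In Roma, 2 of the 25 tested fell and 0 rose, against 0.784% of all loci that fell. At an unadjusted limma p under 0.05, 6 of the 25 passed in Roma, against 17.9%. CK and salt did not overlap at 5 loci of the list in M-81E, against 22.1%, and at 11 in Roma, against 24.6%. The median log2 fold changes of the list were -0.03 in M-81E and -0.02 in Roma, beside 0.01 and 0.00 over all loci. Both that fell were among the 3 loci annotated as glutamate dehydrogenase, which interconverts glutamate and its oxo acid. The other, SORBI_3006G165501, averaged 1.996 FPKM in Roma-CK and 1.12 FPKM in Roma-salt, with overlap (limma, adjusted p = 0.427). In M-81E it averaged 6.90 FPKM in CK and 3.04 FPKM in salt, without overlap. It was the only DEG of the 27 in M-81E, against 6.57% of loci tested. The log2 fold change there was -1.13 (SE 0.44) and did not pass (limma, adjusted p = 0.316). SORBI_3006G165400, the most abundant of the 27 with a mean of 149 FPKM, had 71.7, 77.9 and 91.8 FPKM in Roma-CK and 45.5, 45.6 and 44.0 FPKM in Roma-salt (log2 fold change -0.82, SE 0.11, limma, adjusted p = 0.0388). In M-81E it had 334, 318 and 273 FPKM in CK and 162, 163 and 165 FPKM in salt, also apart, with a log2 fold change of -0.91 that did not pass (SE 0.13, limma, adjusted p = 0.0557). A difference between the lines in this response was not shown (difference 0.09, 95% interval -0.26 to 0.44). The level of this locus was lower in Roma, at 26.1% of the M-81E mean in CK (limma, adjusted p = 0.000945) and 27.6% in salt (limma, adjusted p = 0.000346). Across the list, 6 of 25 loci tested in CK were higher in Roma and 5 lower, against 18.5% and 8.84% of all loci. In salt, 9 of 27 were higher and 3 lower, against 21.2% and 9.15%.

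SORBI_3001G059100 had 34.2, 41.1 and 30.7 FPKM in Roma-CK and 13.3, 9.66 and 14.2 FPKM in Roma-salt. Salt libraries were below CK libraries, at 35.1% of the CK mean (log2 fold change -1.45, SE 0.18, limma, adjusted p = 0.0329). In M-81E it had 25.1, 27.7 and 31.9 FPKM in CK and 17.7, 14.8 and 13.2 FPKM in salt, again apart (-0.85, limma, adjusted p = 0.0795). Both Roma calls were lost without any 1 library, with adjusted limma p of 0.0595 to 0.121 for SORBI_3006G165400 and 0.0633 to 0.0972 for SORBI_3001G059100, and rescaling ended that of SORBI_3006G165400 (limma, adjusted p = 0.0663). Ballgown's linear model ended both (adjusted p = 0.120 and 0.191). In M-81E, conversely, the fit of all 12 libraries called both lower in salt (limma, adjusted p = 0.00423 and 0.0346), and SORBI_3006G165400 passed among loci with at least 1 FPKM on average (limma, adjusted p = 0.0226). Ornithine aminotransferase, SORBI_3001G156100, which makes P5C from ornithine, went from 8.56 ± 0.518 to 11.1 ± 0.605 FPKM in Roma (SD, n = 3, limma, adjusted p = 0.124) and from 14.5 ± 1.28 to 17.9 ± 2.78 FPKM in M-81E (limma, adjusted p = 0.393). It was chosen for mention by its role after its values had been seen.

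Betaine aldehyde dehydrogenase, which completes glycine betaine synthesis, was found at 3 loci by its KEGG code, a search added after the values had been seen. SORBI_3007G130800 was the most abundant, with 31.4, 36.1 and 36.1 FPKM in M-81E-CK, 32.1, 36.7 and 27.5 in M-81E-salt, 52.8, 51.5 and 46.7 in Roma-CK and 38.9, 43.0 and 48.6 in Roma-salt. Treatments overlapped in both lines, and 0 of the 3 loci passed for salt in either. Compared with M-81E, 2 of the 3 were higher in Roma in CK and 1 in salt, against 18.5% and 21.2% of all loci before rescaling. The most abundant locus of the second step was thus at a mean of 40.1 FPKM over the 12 libraries, against 3.65 FPKM for the choline monooxygenase of the first step. The latter mean pools unlike lines, with 4.49 FPKM in M-81E-CK, 7.67 in M-81E-salt, 1.01 in Roma-CK and 1.41 in Roma-salt.

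**Figure D4:**
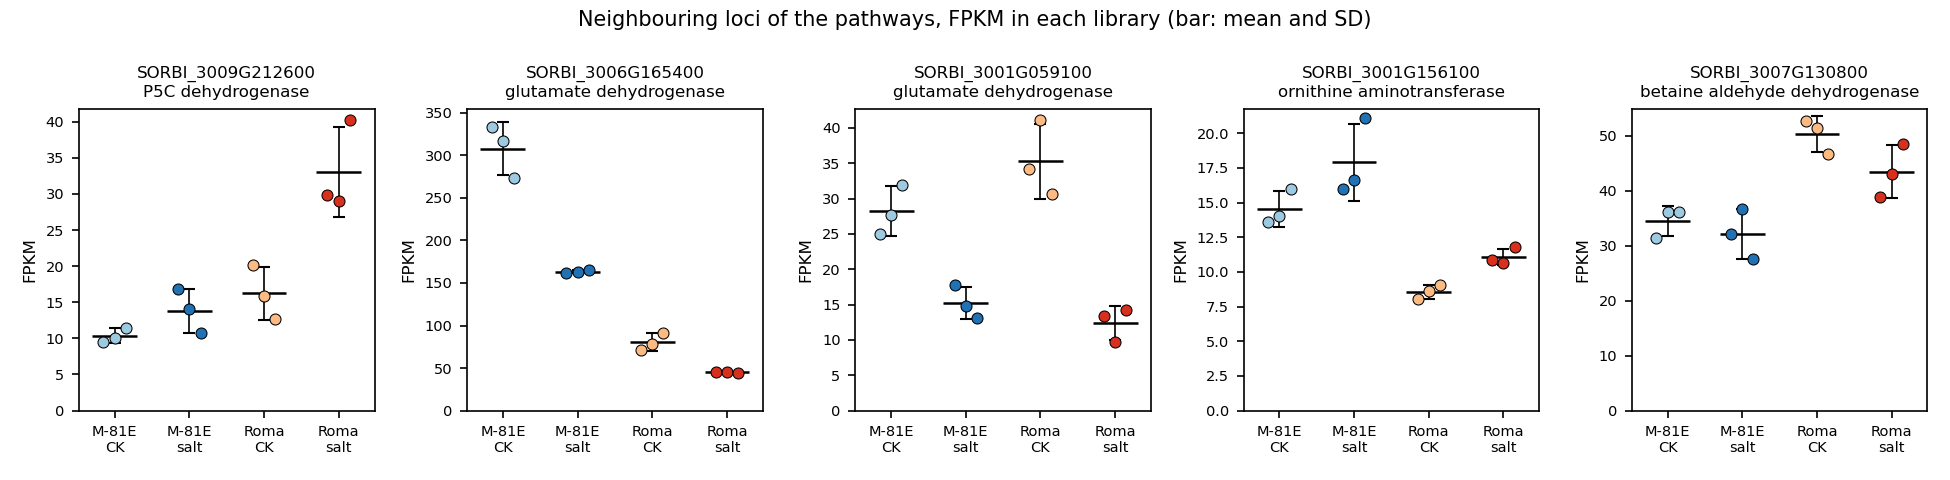
FPKM (y axis, linear, from 0) of P5C dehydrogenase, the 2 glutamate dehydrogenases that fell in Roma, ornithine aminotransferase and the most abundant betaine aldehyde dehydrogenase in each library, by line and treatment (x axis). Points are libraries, and bars give the mean and SD of 3 libraries; both glutamate dehydrogenases shown were lower in every salt library than in every CK library of the same line.

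For the most abundant locus of each branch, the 3 loci with the most similar pattern were sought among the 16180 loci that averaged 1 FPKM or more. Likeness was the Pearson r of log2(FPKM + 1) over the 12 libraries, which share 2 lines and 2 treatments, and is given as a description. For SORBI_3009G160100 these were SORBI_3007G166300 (r = 0.99), SORBI_3010G016600 and SORBI_3007G168300 (both 0.989). GO terms place SORBI_3007G166300 in malate metabolism and give SORBI_3010G016600 a protein-lysine methyltransferase activity. SORBI_3007G168300 has a choline or ethanolamine kinase code by KEGG, whereas its GO terms include protein glycosylation and cytokinin signaling. For proline dehydrogenase they were SORBI_3004G122500 (0.939), the peroxidase SORBI_3006G277700 (0.937) and SORBI_3001G408200 (0.928), a serine/threonine kinase. For choline monooxygenase they were 2 loci with no gene name (both 0.984) and the joined SORBI_3008G165600 and SORBI_3008G165700 (0.983).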

How the data were processed

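Root RNA of 12 libraries, 3 in each of 4 groups, was analysed, with groups and replicate numbers taken from the sample titles. The FPKM per locus that the authors deposited came from StringTie, after trimming with cutadapt and mapping with TopHat2 and Bowtie2. Tool versions, the genome build, the rule for reads that map to several loci and the number of reads per value are not given in the sources used here, so no counting interval could be computed. According to the paper ribosomal RNA was removed before library construction, whereas the labels name a small RNA kit. All 12 columns were matched to samples by name.

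The 10 members and the neighbouring lists were chosen by GO term with earlier results of these data known. All members were named. From each list, loci with an adjusted p under 0.05 in a salt response or the interaction and the locus with the highest mean were named. Loci above 0 FPKM in at least 1 library of a comparison entered the limma test (version 3.58.1, R 4.3.3, eBayes with a trend). Expression was log2(FPKM + 1), so fold changes of low loci are understated. The salt response was fitted within each line and the line difference within each treatment, on 6 libraries, and the interaction on all 12. Fold changes are salt against CK or Roma against M-81E. Benjamini-Hochberg adjustment was over all loci tested. DEGs followed the study's thresholds (unadjusted p under 0.05 and mean FPKM apart by 1 or more on the log2 scale, no pseudocount), although the study used Ballgown. For the salt response, 2117 loci in M-81E and 3096 in Roma were DEGs here, more than the paper reports for either line. Ratios were compared by two-sided exact permutation over 20 assignments. The limma step was tested on simulated data. Alternatives were a pseudocount of 0.1, a mean of at least 1 FPKM, rescaling to a common median, the replicate block, Ballgown's linear model, all 12 libraries in one fit, and each library left out. Figures used Python 3.11.15 with pandas 2.3.3, numpy 2.4.6 and matplotlib 3.10.9. An FPKM of 0 is a listed value and not absence of expression.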

Additional observations from a re-analysis of the deposited data

How the results depend on the processing

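With 3 libraries a group, both salt calls among the 10 loci depended on the fit. The M-81E count was 1, and 0 under the replicate block, Ballgown's linear model, all 12 libraries in one fit, and without any 1 library (0 to 0). Over all loci, M-81E calls went from 266 to 2 under the block and 19 under Ballgown's model. The fit of all 12 libraries gave 833, and fits without 1 library gave 96 to 200. The Roma count was 1, and 0 under the replicate block, Ballgown's model and without any 1 library (0 to 0), and its DEG count ranged from 1 to 2. Over all loci, Roma calls went from 587 to 0 under the block, so no locus kept a call there. They were 27 under Ballgown's model and 77 to 252 without 1 library. DEGs over all loci in Roma were 3096 in the main fit and 1520 to 3602 in the alternatives. Proline dehydrogenase in M-81E had an adjusted limma p of 0.240 under the replicate block, and SORBI_3003G356000 in Roma 0.225. The Roma calls of the glutamate dehydrogenases SORBI_3006G165400 and SORBI_3001G059100 were also lost under the block (0.234 and 0.225). Libraries of the same number did not deviate together (r of -0.0811 to 0.0574, and 1 of 12 libraries correlated best with its own number), so the numbers give no pairing.

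For the line difference in CK, the count of 5 was 1 under the replicate block, 0 under Ballgown's model and 2 to 4 without 1 library, and the DEG count of 3 was 1 under Ballgown's model and 2 to 4 without 1 library. In salt, Ballgown's model gave 0 against 4 by adjusted p and 0 against 4 DEGs. Over all loci the same model gave 1 call against 10088 and 1017 DEGs against 8937. Its library covariate followed the lines (R2 of 0.852 in CK and 0.987 in salt, against 0.112 and 0.193 in the salt responses), so it leaves little of a line difference to test. Under it the log2 differences that reversed were, in CK, 0.55 for SORBI_3001G304700, -0.11 for SORBI_3009G160100, 0.36 for the P5C reductase locus, -0.11 for SORBI_3003G306300 and -0.36 for SORBI_3006G041700, and in salt -0.80 for the P5C reductase locus, -3.76 for SORBI_3001G042000, 1.62 for choline monooxygenase, 2.51 for SORBI_3001G071000, -0.35 for SORBI_3009G087300 and -0.51 for SORBI_3003G306300.

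Other reversals were of values that had not passed. Rescaling gave -0.033 for SORBI_3003G306300 and -0.27 for SORBI_3006G041700 in CK and -0.19 for SORBI_3001G042000 in salt. A pseudocount of 0.1 gave -0.28 for SORBI_3001G042000 in salt and an interaction of -0.051 for SORBI_3001G071000. Without 1 library, the ranges that crossed 0 were -0.22 to 1.31 (M-81E salt response) and -0.96 to 0.94 (Roma) for SORBI_3001G042000, -0.041 to 0.23 for SORBI_3003G306300, -0.36 to 0.037 for SORBI_3001G071000 and -0.031 to 0.25 for SORBI_3006G041700 in Roma, -0.11 to 0.11 for SORBI_3006G041700 and -0.23 to 0.043 for SORBI_3001G304700 between lines in CK, -0.54 to 1.36 for SORBI_3001G042000 between lines in salt, and, for the interaction, -1.73 to 0.17 for SORBI_3001G042000, -0.18 to 0.21 for SORBI_3001G071000 and -0.067 to 0.099 for the joined SORBI_3006G109400 and SORBI_3006G109500 locus. The cause was not tested. Of 640 alternative values of the 10 loci, 550 kept direction and side of the threshold, 48 lost the call, 7 gained it and 35 reversed.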
